A study of Mus musculus with 4 samples.

Results

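Foxp3 regulatory T cells (Treg cells) were picked out of leukocytes from mouse fibrosarcomas, and their transcripts were compared between tumours lacking Raldh1 and Raldh3 and Cas9 control tumours. A cell counted as a Treg cell when it had at least 2 UMIs (unique molecular identifiers, each a counted RNA molecule) of Cd3d, Cd3e and Cd3g together and at least 1 UMI of Foxp3. It also had 0 UMIs of Cd8a and Cd8b1, at most 3 of the macrophage genes C1qa, C1qb and C1qc, and at most 1 of the proliferation genes Mki67 and Top2a. Of 27705 cells with at least 200 genes and at most 10% mitochondrial UMIs, 391 met the rule: 110 in control 1, 58 in control 2, 97 in DKO 1 and 126 in DKO 2. These 11 genes chose the cells, so their levels are given as a description.

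All 4 libraries came from untreated mouse tumours taken on day 11 after implantation, digested with collagenase B and DNAse I, and sorted for live CD45+ leukocytes. The control group is labelled Cas9 Control and the other group Raldh1/3 DKO, a knockout of Raldh1 together with Raldh3, the enzymes that make retinoic acid from retinal. The labels name the tumour as a fibrosarcoma and give no host strain, age or sex, nor how many clones the edited tumours represent. A library pooled 2 tumours, and 2 libraries were made per group, from 4 tumours. The library is the replicate, and p-values measure the spread between pools. With 2 libraries against 2, an exact permutation test cannot give a p below 0.333.

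Treg cells are CD4 T cells governed by the transcription factor Foxp3, and they restrain other lymphocytes. They take up IL-2 through Il2ra (CD25), strip costimulatory ligands from antigen-presenting cells through Ctla4, and release mediators such as IL-10 and, in some tissues, granzymes. In tumours they usually carry an activated, effector-type state and are a target of checkpoint therapy. Retinoic acid is known as a cofactor in the induction of Foxp3 in the gut and in the imprinting of gut-homing receptors.

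The files held 7201 and 5429 barcodes for the DKO libraries and 9206 and 8668 for the controls, with 57458026 to 80032966 UMIs per library. Treg cells had a median of 3986 and 3866.5 UMIs in control 1 and 2 and of 4209 and 5336 in DKO 1 and 2, so DKO 2 was the deepest. Their summed UMIs were 550648, 275651, 452115 and 804923 in the same order. Of 30368 distinct barcodes, 110 occurred in more than 1 library, and 0 of those belonged to a Treg cell.

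The label was checked against Il2ra, Ctla4 and Ikzf2, which the rule did not use. A UMI of Ikzf2, which encodes Helios, was found in 92.1% of the 76 members with a single Foxp3 UMI, in 96.3% of the 81 with 2, and in 95.7% of the 234 with 3 or more. In conventional CD4 T cells (T cells with Cd4 and no Foxp3 or Cd8 UMI) that share was 22.1%. Il2ra was found in 86.8%, 85.2% and 91.9% of the same 3 classes of members against 40.4% of conventional CD4 T cells. Cells that only just met the Foxp3 limit therefore had these markers about as often as those far above it. Ctla4 separated the cell types less, at 76.3%, 84.0% and 88.9% of members against 79.5% of conventional CD4 T cells. In myeloid cells (at least 1 Csf1r UMI and no Cd3 UMI), which should lack these transcripts, the shares were 1.23% for Il2ra, 4.02% for Ctla4 and 6.09% for Ikzf2. These myeloid shares were higher in both DKO libraries than in both controls. In control 1, control 2, DKO 1 and DKO 2 they were 0.938%, 0.903%, 1.46% and 2.25% for Il2ra. They were 2.84%, 2.55%, 5.19% and 8.21% for Ctla4, and 5.00%, 3.65%, 8.40% and 10.7% for Ikzf2.

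Foxp3 itself was found in 0.490%, 0.241%, 0.357% and 0.927% of myeloid cells (control 1, control 2, DKO 1, DKO 2; this order is kept below), at median depths of 9276 to 12864.5 UMIs. Its share in T cells without a Cd8 UMI, which were shallower, was 13.4%, 9.05%, 11.96% and 16.8%. Members had a median of 3, 2, 3 and 4.5 Foxp3 UMIs. Of all 691 cells with a Foxp3 UMI, 47 failed only the Cd3 limit, 63 only the Cd8 limit, 17 only the C1q limit and 87 only the proliferation limit. Those 87 cells with proliferation transcripts made up 20.3% and 19.4% of otherwise matching Foxp3 T cells in control and 16.4% and 17.1% in DKO.

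Treg cells of these tumours were Helios-high, granzyme B-rich cells with Klrg1 and Itgae. Levels below are CPM, the UMIs of a gene per 1000000 UMIs of all summed cells of a type, as a mean of 4 libraries. The libraries were made from 3′ ends, so counts do not scale with transcript length. Because Foxp3 separates the cell types, differences between them are a description. Among 3559 genes with at least 50 CPM in the higher cell type, 1273 were higher and 618 lower in Treg than in conventional CD4 T cells in all 4 libraries.

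Lrrc32 (GARP), which holds latent TGF-beta on the Treg surface, was at 171 CPM in Treg cells and 3.55 in conventional CD4 T cells. Itgb8, the integrin chain that helps release that TGF-beta, was at 92.2 against 4.63 CPM. Itgae (CD103), which binds E-cadherin, was at 207 against 4.49 CPM. All 3 genes were near 0 in CD8 T cells too, with means of 1.34 CPM for Lrrc32, 0.108 for Itgb8 and 4.20 for Itgae.

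Gzmb, the serine protease of cytotoxic granules, was at 2157 CPM in Treg cells, 109 in conventional CD4 T cells and 949.8 in CD8 T cells. A Gzmb UMI was found in 84.5%, 84.5%, 81.4% and 75.4% of Treg cells. Myeloid cells had one in 2.88% to 6.40%. Perforin, encoded by Prf1, was at 49.0 CPM in Treg cells, 15.5 in conventional CD4 T cells and 257 in CD8 T cells. Unlike Gzmb, it was thus lower in Treg than in CD8 T cells.

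Ikzf2 was at 1758 against 95.2 CPM, Il2ra at 1326 against 299, and Ctla4 at 1586 against 616 in Treg and conventional CD4 T cells. The costimulatory receptors of the TNF receptor family followed, with Tnfrsf4 (OX40) at 2220.1 against 904 CPM and Tnfrsf9 (4-1BB) at 1346 against 448. Tnfrsf9 was found in 88.7% to 93.1% of Treg cells of each library. Ikzf4 (Eos), a partner of Foxp3, was at 180.3 against 35.1 CPM, and Izumo1r (folate receptor 4) was at 441 against 100.4.

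Klrg1, an inhibitory receptor of terminally differentiated lymphocytes, was at 289 CPM in Treg cells, 23.7 in conventional CD4 and 15.6 in CD8 T cells. It was found in 44.4% to 50% of Treg cells of a library. Tcf7, a transcription factor of resting T cells, was at 9.82 CPM in Treg and 81.4 in conventional CD4 T cells.

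Type 2 cytokines marked the other side. Il13 was at 266 CPM in conventional CD4 T cells and 3.42 in Treg cells, Il4 at 110.3 against 1.97, Il5 at 79.8 against 0.932, and Csf2 (GM-CSF) at 57.7 against 0.311. Cd40lg, the helper T cell ligand, was at 115 against 11.4 CPM. Cxcr6, a chemokine receptor of tissue-resident lymphocytes, was at 734 CPM in conventional CD4, 442 in CD8 and 130.1 in Treg cells, the lowest level of the 3 types. Ccr8, often used to mark tumour Treg cells, was at 11.4 CPM in Treg and 11.97 in conventional CD4 T cells, and 7.27%, 5.17%, 3.09% and 6.35% of Treg cells had a UMI of it. Nrp1 was lower in Treg cells, at 57.8 against 153 CPM.

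**Figure D1:**
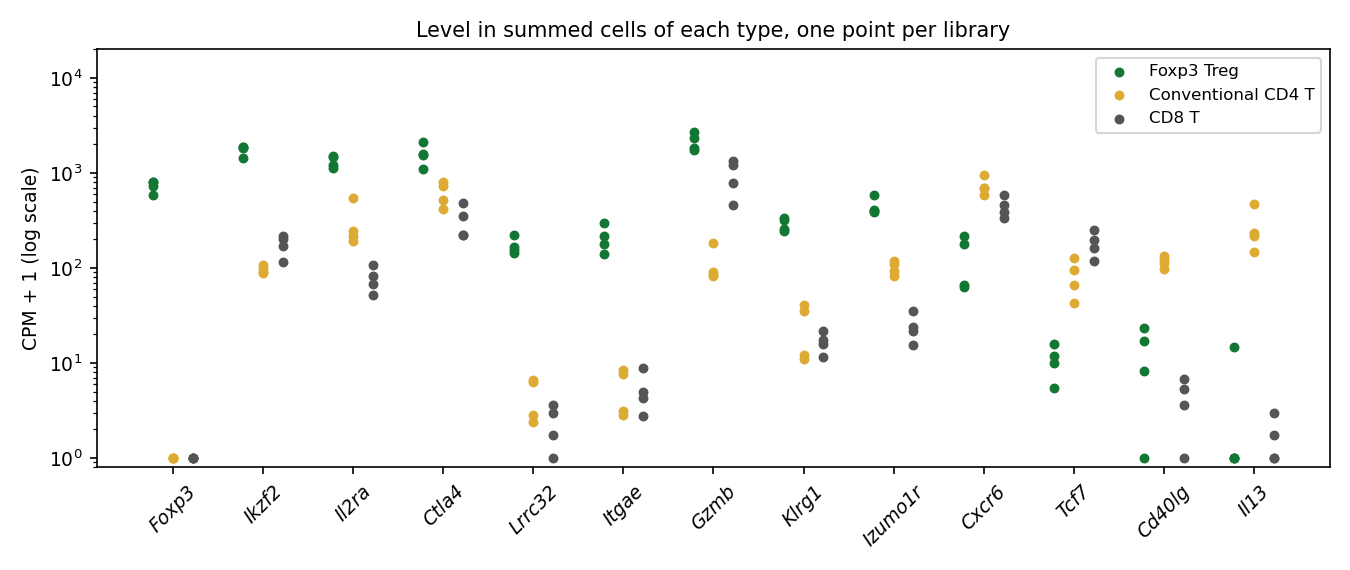
Levels of 13 genes in Treg, conventional CD4 and CD8 T cells, as CPM + 1 on a log scale, with 1 point per library. In every library, Ikzf2, Lrrc32, Itgae, Klrg1 and Izumo1r lay higher in Treg cells than in the other types, and Il13, Cd40lg and Cxcr6 lay lower in Treg than in conventional CD4 T cells. Foxp3 is 0 in the other types by the rule.

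The number of Treg cells was compared over 4 denominators. Treg cells made up 1.33% and 0.725% of all cells passing the filter in control and 1.48% and 2.59% in DKO. The groups did not overlap, with means of 1.03% ± 0.428 (SD, n = 2) in control and 2.04% ± 0.789 in DKO, a ratio of 1.98 and the smallest p this exact permutation test can give (two-sided, p = 0.333). The gap between control 1 and DKO 1 was small, and their 95% Clopper-Pearson intervals, which cover counting error only, overlapped. Without DKO 2 the ratio was 1.44, and without control 1 it was 2.81.

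Within T cells the difference was smaller and the groups overlapped. Treg cells were 8.18%, 5.94%, 6.14% and 11.1% of non-cycling T cells, with means of 7.06% ± 1.59 in control and 8.60% ± 3.48 in DKO (n = 2 each, exact permutation test, two-sided, p = 0.667). DKO 2 was the highest and DKO 1 lay between the 2 controls. Without DKO 2 the direction turned, with a ratio of 0.869. After each T cell was thinned to 2000 UMIs, which set aside 18 to 66 shallower T cells per library, the means were 5.54% ± 1.16 and 6.63% ± 2.74. With 0 C1q UMIs in T cells the groups did not overlap (7.17%, 6.80%, 7.28% and 10.7%, exact permutation p = 0.333, n = 2), and control 1 and DKO 1 were then almost equal.

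Treg cells made up 27.8%, 18.8%, 19.4% and 28.5% of Treg and conventional CD4 T cells together (means 23.3% ± 6.42 and 23.9% ± 6.47, exact permutation p = 0.667, n = 2). The lower library of each group lay near 19% and the higher near 28%. A Cd4 UMI was required of conventional CD4 T cells but not of Treg cells, and 60.9%, 62.1%, 69.1% and 73.8% of Treg cells had one. With Cd4 required of both, the shares were 19.0%, 12.5%, 14.2% and 22.7%, and the groups again overlapped. There were 0.256, 0.216, 0.146 and 0.399 Treg cells per CD8 T cell, with both the lowest and the highest value in DKO (exact permutation p = 1, n = 2). Myeloid cells numbered 4902, 4986, 3085 and 2266 of the cells that passed, so the share of all cells is counted over a population whose myeloid part was smaller in DKO. In shares of sorted cells, more Treg cells and fewer other cells cannot be told apart.

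**Figure D2:**
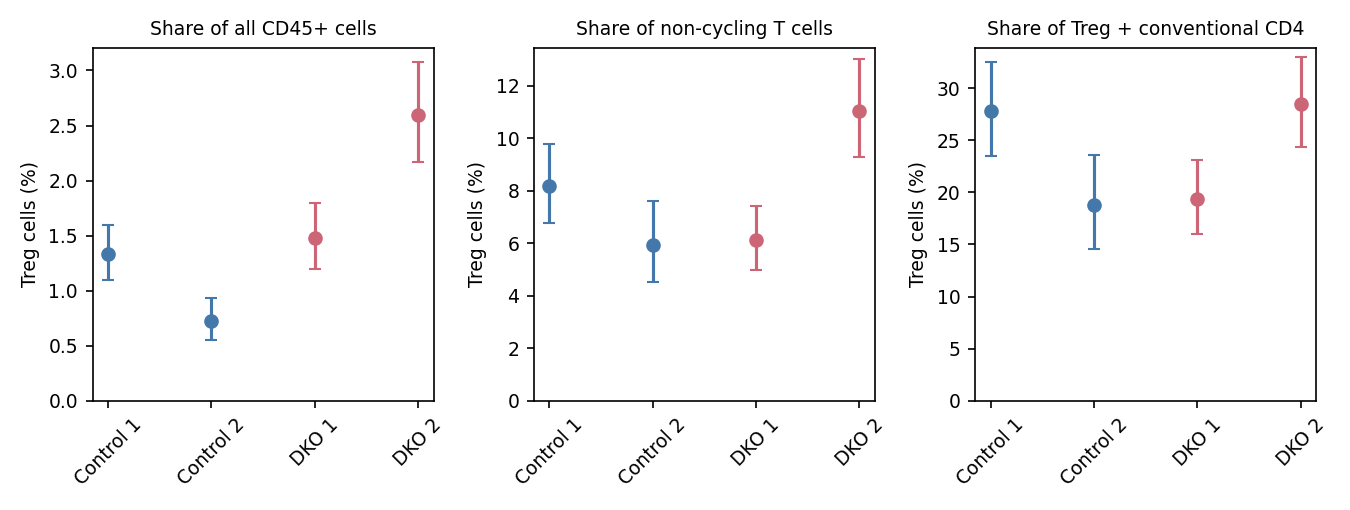
Treg cells as a percentage of all cells, of non-cycling T cells, and of Treg plus conventional CD4 T cells, for each library with 95% Clopper-Pearson intervals for counting error. Both DKO points lie above both control points in the first panel (1.48% and 2.59% against 1.33% and 0.725%), whereas the groups overlap in the others.

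To ask how the Treg cells themselves differed, UMIs were summed over the Treg cells of each library and 6212 genes were tested with edgeR's quasi-likelihood test and Benjamini-Hochberg adjustment. At an adjusted p under 0.05, 3 genes were called (0.0483% of those tested). Cxcr6 rose in DKO (1 gene, 0.0161% of those tested), and Cxcl9 and Tyrobp fell (2 genes, 0.0322%). An unadjusted p under 0.05 was found for 626 genes (10.1%), and the groups did not overlap in 42.9% of all genes tested, 25.9% higher and 17% lower in DKO. The median log2 change over all genes was 0.006, and 50.7% were above 0. Counts of list members given below are to be read against these shares.

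Cxcr6 (chr9:123806475-123811760, plus strand, GRCm38) encodes the receptor for Cxcl16, a chemokine shown by macrophages and dendritic cells. Its level in Treg cells was 65.4 and 61.7 CPM in the controls and 217 and 176 in DKO. Both DKO libraries were far above both controls, whose values lay close together. The log2 change was 1.54 ± 0.23 (SE), with an edgeR adjusted p of 0.0416. A Cxcr6 UMI was found in 15 of 110 and 7 of 58 control Treg cells (13.6% and 12.1%) and in 26 of 97 and 45 of 126 DKO Treg cells (26.8% and 35.7%). At 2000 UMIs per cell these shares were 9.52%, 7.27%, 18.9% and 22.2%. The share in myeloid cells was 0.401% to 1.28%.

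The call of Cxcr6 was lost without control 1, without control 2 and with DESeq2, where the change was 1.55, 1.53 and 1.55. It was also lost when Treg cells had to have 0 C1q UMIs, which left 41, 30, 63 and 62 cells and a log2 change of 0.62. With 0 UMIs of Lyz2, Csf1r and Cd14 together, an alternative chosen after seeing the data that left 54, 27, 68 and 84 cells, the change was 1.46 and was not called. Nor was it called when cycling Treg cells were included (1.25).

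The change of Cxcr6 was larger in Treg cells than in conventional CD4 T cells. There its level was 694 and 591 CPM in the controls and 956 and 692 in DKO, with a log2 change of 0.30. The difference between the changes was 1.32 ± 0.22 (edgeR cell-type-by-group term with library as block, adjusted p = 0.00526), and it was no longer called without either control library (1.27 and 1.36). In CD8 T cells the log2 change was 0.44, and the difference of 1.08 ± 0.23 was not called (adjusted p = 0.124 in edgeR). Even in DKO, the level of Cxcr6 in Treg cells stayed under that in the other T cells.

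**Figure D3:**
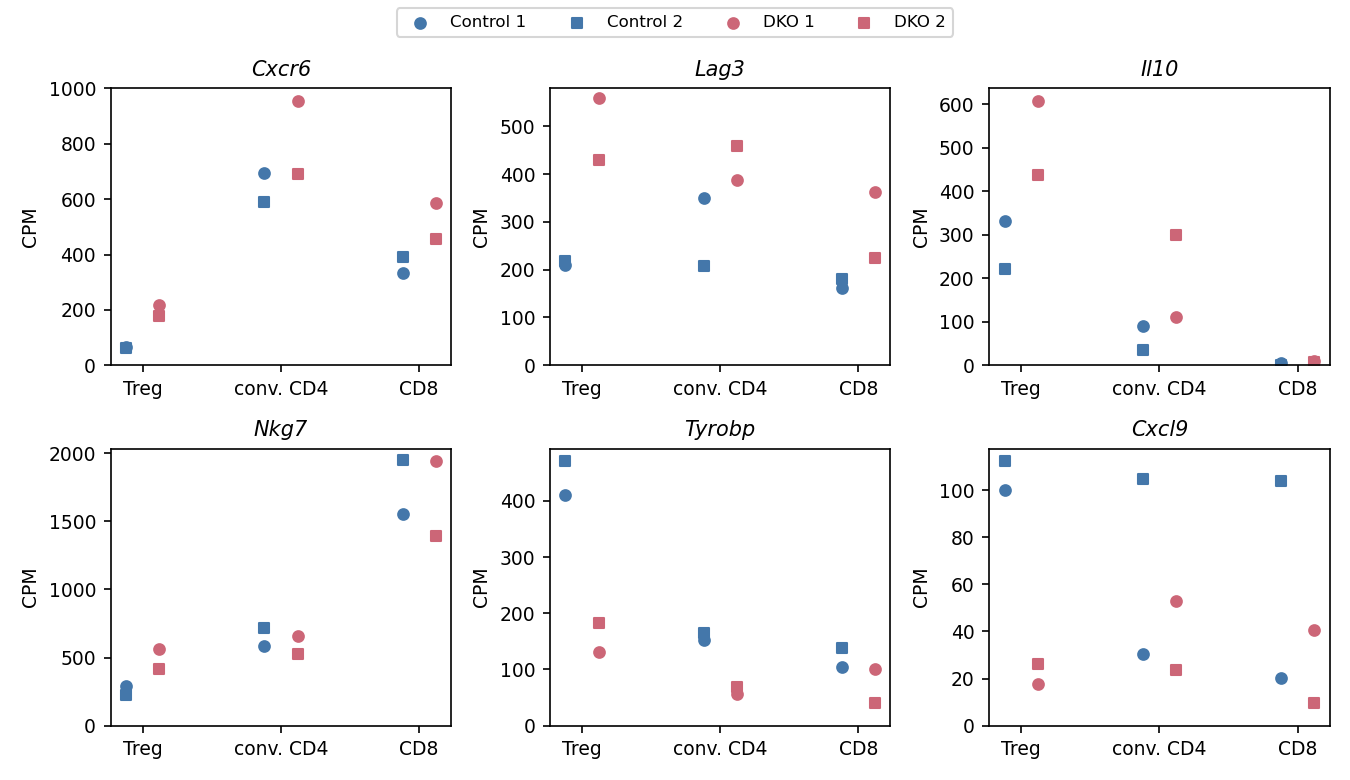
CPM of 6 genes in Treg, conventional CD4 and CD8 T cells, with 1 point per library (blue for control, red for DKO, circle for replicate 1, square for replicate 2). Cxcr6 in Treg cells lay at 65.4 and 61.7 CPM in the controls and 217 and 176 in DKO, and in conventional CD4 T cells it was between 591 and 956 CPM. Tyrobp was lower in DKO in all 3 cell types.

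Among 16 tested genes for suppressive mediators, 10 had a higher and 6 a lower fitted level in DKO, with a median log2 change of 0.11, and 0 were called. Lag3, an inhibitory receptor that binds MHC class II, was at 211 and 218 CPM in the controls and at 559.6 and 429.9 in DKO. The groups did not overlap, and the log2 change was 1.14 ± 0.20 (edgeR adjusted p = 0.140). A Lag3 UMI was found in 36.4% and 20.7% of control and 56.7% and 43.7% of DKO Treg cells. At 2000 UMIs per cell these shares were 26.7%, 12.7%, 51.1% and 31.7%, so control 1 and DKO 2 were then close. The shares in myeloid cells were 2.82%, 1.18%, 3.82% and 6.31%. For Lag3, 3 cells held 24 of 116, 39 of 60, 62 of 253 and 74 of 346 UMIs. Over 15 alternative analyses the log2 change of Lag3 kept its sign and ran from 0.68 to 1.34. Both DKO libraries also lay above both controls in the other T cells. There Lag3 was at 349, 208, 388 and 458 CPM in conventional CD4 and 161, 180, 362 and 224 in CD8 T cells.

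Il10, the suppressive cytokine, was at 331 and 221 CPM in the controls and at 606 and 437 in DKO (log2 0.82 ± 0.22, edgeR adjusted p = 0.316). It was found in 27.3% and 25.9% of control and 46.4% and 39.7% of DKO Treg cells, and at 2000 UMIs per cell in 18.2% ± 2.57 and 34.5% ± 6.17 (n = 2, exact permutation p = 0.333). Both DKO libraries lay above both controls in level and in share. The same held in conventional CD4 T cells, at 90.3, 36.3, 111 and 300 CPM and shares of 5.26%, 5.58%, 6.19% and 9.81%. In CD8 T cells the levels were lower, at 5.34, 1.32, 9.88 and 7.35 CPM, again with DKO above control. Il10 and Gzmb were found together: 92.1% of the 140 Il10-positive Treg cells had a Gzmb UMI, against 74.5% of the 251 Il10-negative ones, and the direction was the same in each library. Their median depths were 4725.5 and 4224 UMIs.

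Prf1, the pore-forming partner of granzymes, was at 12.7 and 36.3 CPM in the controls and 68.6 and 78.3 in DKO. Its log2 change was 1.75 ± 0.40 (edgeR adjusted p = 0.248), from 7, 10, 31 and 63 UMIs. It was 0.92 without control 1, 1.05 with doublets removed and 0.78 with 0 C1q UMIs. For Prf1, 3 cells held 4 of 7, 6 of 10, 13 of 31 and 39 of 63 UMIs. At 2000 UMIs per cell the shares of Treg cells with a Prf1 UMI were 3.81%, 3.64%, 11.1% and 4.76%. Gzmb itself was at 1749 and 2347 CPM in the controls and 2723 and 1808 in DKO, so its groups overlapped (log2 0.08). Its share of positive cells was 84.5% in both controls and lower in both DKO libraries as deposited, but overlapped at 2000 UMIs per cell. Cd81, a tetraspanin, had the largest fitted change downward of the list (134, 90.7, 37.6 and 89.4 CPM, log2 -0.84, edgeR adjusted p = 0.446). Over the suppressive mediator list the median log2 change was -0.095 in conventional CD4 and 0.18 in CD8 T cells.

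Of 14 tested Treg identity genes, 10 had a higher and 4 a lower fitted level in DKO, with a median of 0.13 and 0 called. Foxp3, as a description, was at 719, 591, 805 and 795 CPM. Il2ra was at 1124, 1201, 1469 and 1509 CPM, without overlap (log2 0.29 ± 0.15, edgeR adjusted p = 0.528). Ctla4 was at 1558, 1096, 1570.4 and 2119 CPM (log2 0.41 ± 0.19, edgeR adjusted p = 0.499), where control 1 and DKO 1 were almost equal. Ikzf2 was at 1885, 1447, 1871 and 1828 CPM and overlapped (log2 0.08 ± 0.16). The share of Treg cells with an Ikzf2 UMI was 99.1%, 94.8%, 93.8% and 92.9%. Over the identity list the median log2 change was -0.05 in conventional CD4 and 0.57 in CD8 T cells.

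Most of the effector and tissue Treg list had higher fitted levels in DKO, with 15 of 18 tested genes above 0, a median of 0.33 and 1 called gene, Cxcr6. Its groups did not overlap in 8 genes, all higher in DKO. Maf, a transcription factor that drives Il10, was at 1329 and 1229.8 CPM in the controls and 2338 and 1760.4 in DKO (log2 0.61 ± 0.17, edgeR adjusted p = 0.316). Id2, a transcriptional regulator of effector lymphocytes, was at 456, 301, 677 and 519 CPM (log2 0.57 ± 0.21, edgeR adjusted p = 0.426). Over the same list the median log2 change was 0.20 in conventional CD4 and 0.34 in CD8 T cells.

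Of 9 tested genes of resting and lymphoid-homing T cells, 6 were above 0, with a median of 0.11 and 0 called. Among 11 Th1-related genes the median was -0.01, with 5 above 0 and 0 called. Il12rb2, the IL-12 receptor chain, was at 21.8 and 25.4 CPM in the controls and 48.7 and 49.7 in DKO (log2 1.03 ± 0.35, edgeR adjusted p = 0.406). The share of Treg cells with a UMI of Tbx21, which encodes T-bet, was 20.9%, 15.5%, 24.7% and 31.7%, whereas that of its target Cxcr3 was 39.1%, 37.9%, 33.0% and 33.3%. Neither pair of groups overlapped, and they lay in opposite directions. At 2000 UMIs per cell the Tbx21 shares were 10.5%, 10.9%, 16.7% and 11.9%, so DKO 2 was then close to the controls. The Cxcr3 shares were then 23.8%, 23.6%, 18.9% and 15.1%.

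Migration receptors had 9 of 11 genes above 0, a median of 0.36 and 0 called. Ccr4, which binds Ccl17 and Ccl22, was at 19.98 and 36.3 CPM in the controls and 64.1 and 67.1 in DKO (log2 1.28 ± 0.35, edgeR adjusted p = 0.316). Itga1, a collagen-binding integrin chain, was at 16.3, 7.26, 28.8 and 49.7 CPM (log2 1.57 ± 0.48, edgeR adjusted p = 0.389). The DKO libraries were the higher ones for both genes. Over the migration list the median log2 change was 0.22 in conventional CD4 and 0.19 in CD8 T cells.

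No gene of the signalling lists was called in Treg cells. T cell receptor signalling and Nr4a genes had 11 of 14 above 0 (median 0.27), and IL-2 and STAT5 genes 12 of 14 (median 0.23), with 0 called in either. Zap70, the kinase next to the T cell receptor, was at 165 and 123 CPM in the controls and 276 in both DKO libraries (log2 0.84 ± 0.20, edgeR adjusted p = 0.275). Nfatc1, which the receptor activates through calcium, had a log2 change of 0.71 ± 0.25, and Socs2 and Pim1, targets of STAT5, had 0.63 and 0.40. TNF superfamily and NF-kB genes had a median of 0.00 with 7 of 13 above 0, where Tnfaip3 (A20), a brake on NF-kB, was at 461, 406, 646 and 703 CPM (log2 0.57). Hypoxia and glycolysis genes had 13 of 17 above 0 and a median of 0.29, with 10 genes higher without overlap and 0 called. Bnip3 and P4ha1, targets of the hypoxia factor Hif1a, had log2 changes of 0.71 and 0.70. Interferon response genes had 6 of 19 above 0 and a median of -0.13, and dissociation stress genes 7 of 13 and 0.10, with 0 called in both lists. In conventional CD4 and CD8 T cells the median log2 changes were 0.31 and 0.23 for T cell receptor and Nr4a genes. They were 0.14 and 0.12 for IL-2 and STAT5 genes, and 0.13 and 0.24 for hypoxia and glycolysis genes.

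The retinoic acid axis was thinly expressed in Treg cells. Of 20 listed genes 9 could be tested, with 4 above 0, a median of -0.08 and 0 called, and 5 had 0 UMIs in all 4 libraries. Rara, the receptor through which retinoic acid acts in T cells, was at 76.3, 94.3, 92.9 and 119 CPM and overlapped (log2 0.31 ± 0.25). Itgb7, a chain of the gut-homing integrin, was at 643 and 733 CPM in the controls and 551 and 596 in DKO (log2 -0.32 ± 0.17, edgeR adjusted p = 0.533). Ccr9, the gut-homing chemokine receptor, had 0, 5, 2 and 1 UMIs in all Treg cells.

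**Figure D4:**
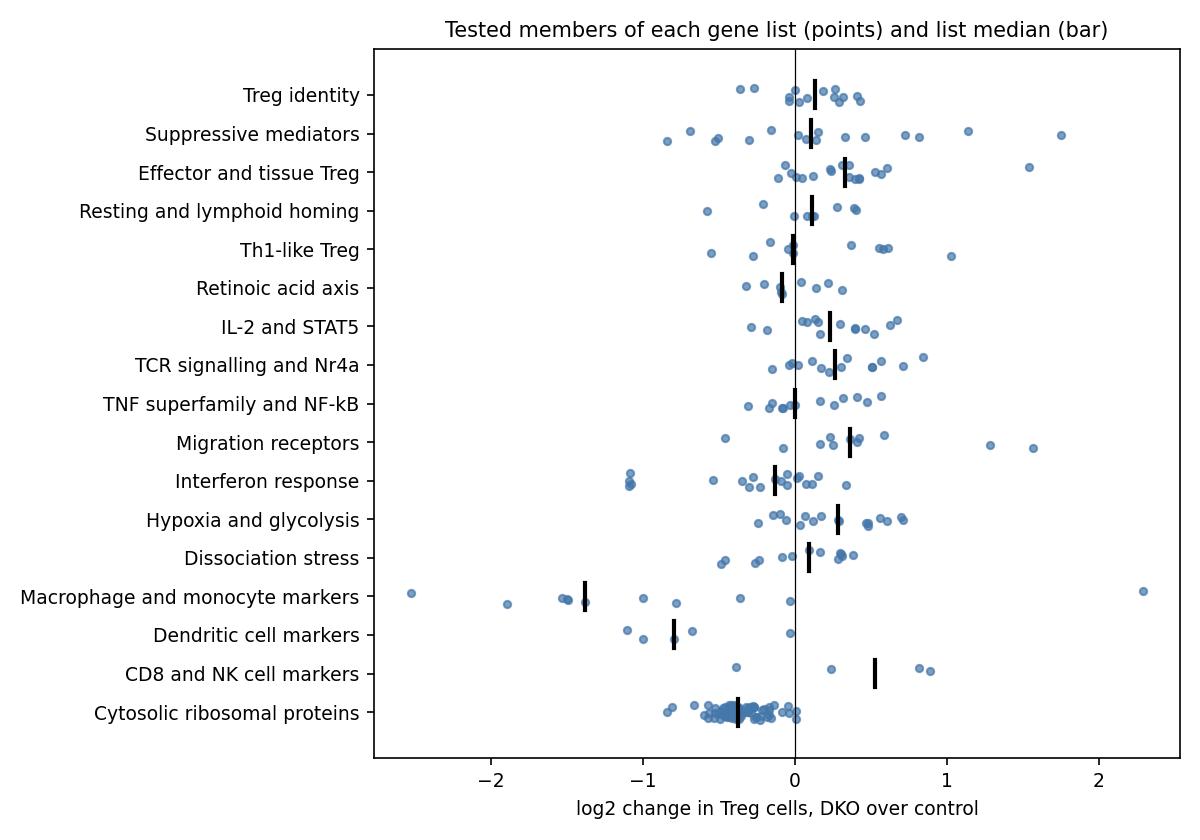
Log2 change in Treg cells, DKO over control, for tested members (points) of the gene lists with at least 4 tested genes, with the list median as a black bar. Macrophage and monocyte markers lie lowest (median -1.38), with Pf4 as their single point above 0, and ribosomal protein genes lie below 0 in 74 of 76 cases.

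Transcripts of myeloid cells were lower in the DKO Treg sums. Tyrobp (chr7:30413760-30417585, plus strand), the signalling adaptor of myeloid and NK receptors, was at 410.4 and 472 CPM in the controls and 130.5 and 183 in DKO (log2 -1.53 ± 0.21, edgeR adjusted p = 0.0346). Cxcl9 (chr5:92321347-92328079, minus strand), an interferon-induced chemokine, was at 99.9 and 112 CPM in the controls and 17.7 and 26.1 in DKO (log2 -2.25 ± 0.30, edgeR adjusted p = 0.0346). For both genes, the controls lay above both DKO libraries. In conventional CD4 and CD8 T cells Cxcl9 was not called (log2 -0.88 and -1.17), and control 2 was the highest library in both. In Treg cells, few cells carried most Cxcl9 UMIs in control: 3 cells held 41 of the 55 Cxcl9 UMIs in control 1 and 27 of the 31 in control 2. Tyrobp had a UMI in 29 of 110, 8 of 58, 19 of 97 and 18 of 126 Treg cells. These shares (26.4%, 13.8%, 19.6% and 14.3%) overlapped between the groups, with control 2 below both DKO libraries. At 2000 UMIs per cell they were 18.1%, 12.7%, 10% and 7.14%, without overlap. For Tyrobp 3 cells held 79 of 226, 92 of 130, 40 of 59 and 63 of 147 UMIs. The call of Tyrobp was lost with at least 1 Cd4 UMI per Treg cell, where its log2 change was -0.57, and also with doublets removed (-1.52) or 0 C1q UMIs (-1.56). Cxcl9 was not called without the limit on proliferation genes (-1.79) and could not be tested under 4 alternatives that kept fewer cells.

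Most macrophage and monocyte markers were lower alongside. Of 11 tested members of 13, 10 were lower in DKO, 8 without overlap, and 1 was called, with a median log2 change of -1.38. Their summed level was 3219.8 and 4644 CPM in the controls and 1783 and 1753 in DKO Treg cells, or 0.322%, 0.464%, 0.178% and 0.175% of UMIs. Lyz2, the lysozyme of macrophages, was at 779 and 1165 CPM in the controls and 97.3 and 241 in DKO (log2 -2.52 ± 0.46, edgeR adjusted p = 0.310), and Ifitm3 was at 719, 1215, 303 and 404 (log2 -1.50 ± 0.26, edgeR adjusted p = 0.140). Adgre1 had 9, 11, 6 and 4 UMIs, and Cd163 had 1, 0, 0 and 0. Pf4 was the exception, at 239 CPM in DKO 1 alone, where 107 of its 108 UMIs came from 3 cells.

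The same list was lower in the other T cells, with a median of -1.40 in conventional CD4 T cells, where 7 were called of 12, and -0.93 in CD8 T cells, where 2 were called of 12. All these calls were lower in DKO. In those fits 66 of 8870 genes (0.744%) and 13 of 9177 (0.142%) were called lower in DKO. Of the genes with the smallest p among those lower in Treg cells, Fn1 (log2 -1.49), Cst3 (-1.08), Ccl6 (-1.55), Aif1 (-1.68) and Alox5ap (-1.58) are also abundant in macrophages, and Commd4 (-1.13) and Rpl10 (-0.84) completed the list. Dendritic cell markers, mostly MHC class II genes, summed to 4836, 5322, 1575 and 3886 CPM, and Cd74 had a log2 change of -1.10. What part such myeloid transcripts have in the Treg differences was not tested. With 0 C1q UMIs, or with 0 UMIs of Lyz2, Csf1r and Cd14, 0 genes were called by edgeR in fewer cells, and 262 of 4015 and 304 of 4212 tested genes had an unadjusted p under 0.05.

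Ribosomal protein genes were lower in DKO as a group. Of 76 tested, 74 had a negative log2 change, 64 of them without overlap, 0 were called and the median was -0.37. They took 14.2% and 15.3% of Treg UMIs in control and 12.4% and 11.8% in DKO. In conventional CD4 T cells the shares were 19.8%, 21.01%, 19.0% and 17.2%, and in CD8 T cells 25.4%, 24.7%, 21.3% and 21.2%. Lower shares in DKO were thus found in all 3 cell types, and Treg cells had the lowest shares throughout. Treg cells were deeper in DKO (median 4209 and 5336 UMIs against 3986 and 3866.5), and the part of depth in this was not tested.

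**Figure D5:**
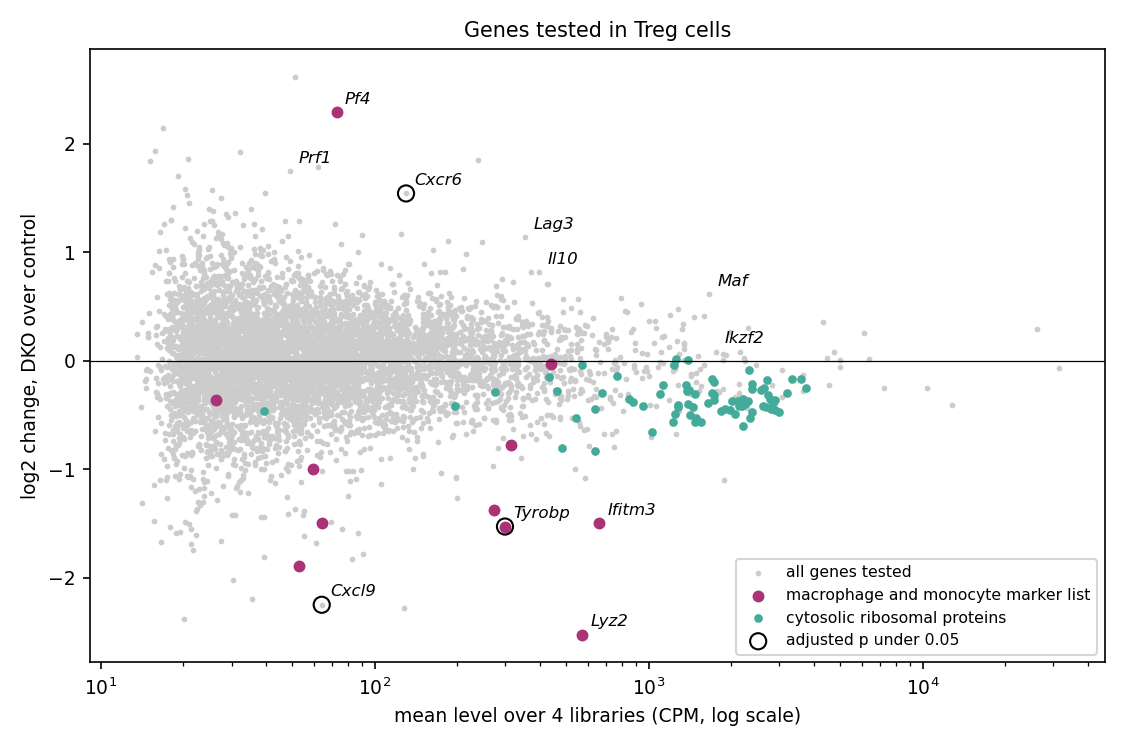
Log2 change in Treg cells against mean level (CPM, log scale) for the 6212 genes tested, with macrophage and monocyte markers, ribosomal protein genes and the 3 called genes marked. Cxcr6 is the called gene above 0, and Tyrobp and Cxcl9 are those below. Ribosomal protein genes form a band just under 0 at the highest levels.

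Other genes with the smallest p among those higher in DKO were AC160336.1, Ccl24, Bhlhe40, Ccl3, Trib2 and Lgals7, with log2 changes of 1.09, 1.10, 0.98, 1.17, 1.16 and 2.61, none of them called by edgeR. Bhlhe40, a transcription factor of activated T cells, was at 131 and 152 CPM in the controls and 314 and 267 in DKO. A Bhlhe40 UMI was found in 28.2%, 34.5%, 47.4% and 50.8% of Treg cells. Its shares were also higher in DKO in CD8 T cells (54.2%, 63.9%, 76.2% and 71.5%) and in myeloid cells (59.5%, 54.3%, 69.6% and 74.5%). In conventional CD4 T cells they were 79.3%, 83.7%, 93.3% and 81.0%, and the groups overlapped. Trib2, a pseudokinase, was at 63.6, 39.9, 128 and 127 CPM in Treg cells. Ccl24, an eosinophil-attracting chemokine of macrophages, was concentrated in few cells, with 3 cells holding 56 of 58, 29 of 34, 117 of 130 and 136 of 179 UMIs. Lgals7 was likewise borne by few cells, and 93 of its 104 UMIs in DKO 2 came from 3. For Ccl3, 3 cells held 17 of 33, 22 of 26, 67 of 83 and 85 of 131 UMIs. The share of Treg cells with a Ccl3 UMI overlapped between the groups (12.7%, 10.3%, 11.3% and 23.0%).

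Beside Cxcr6, 6 genes differed in their DKO change between Treg and conventional CD4 T cells, which makes 7 of 8681 tested (0.0806%). For Klrg1 the groups separated in conventional CD4 T cells and overlapped in Treg cells: Treg cells had 243, 337, 321 and 255 CPM, whereas conventional CD4 T cells had 39.6, 34.1, 10.1 and 11.1 (difference 1.83 ± 0.30, edgeR adjusted p = 0.00526). The pattern was alike for Ccl5, a chemokine of cytotoxic cells, at 483, 268, 524 and 267 CPM in Treg cells against 499.8, 439, 212 and 166 in conventional CD4 T cells (1.35 ± 0.24, edgeR adjusted p = 0.0345). Nkg7, a cytotoxic granule protein, was at 292, 225, 559.6 and 412 CPM in Treg cells, with DKO above control, against 588, 717, 659.6 and 529 (1.01 ± 0.19, edgeR adjusted p = 0.0230). Serpinb6b, an intracellular protease inhibitor of the serpin family, was at 45.4, 43.5, 86.3 and 83.2 CPM in Treg cells and 307, 314, 217 and 187 in conventional CD4 T cells (1.57 ± 0.28, edgeR adjusted p = 0.00842). These calls were lost without control 1 for Klrg1, without control 2 for Nkg7 (0.71), without control 2 or DKO 1 for Ccl5 (1.06 and 1.00), and without control 1, control 2 or DKO 2 for Serpinb6b (1.67, 1.52 and 1.46). With doublets removed the difference was 0.65 for Ccl5 and 0.79 for Nkg7, and neither was called.

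Against CD8 T cells, 4 of 8860 genes differed (0.0451%). Nkg7 was again among them (0.94 ± 0.18, edgeR adjusted p = 0.0403), with 1556, 1947, 1942 and 1393 CPM in CD8 T cells and no separation of the groups there. The growth factor Areg, a tissue-repair product of Treg cells, was at 338, 736, 692 and 312 CPM in Treg cells and at 1.64, 1.32, 17.7 and 6.05 in CD8 T cells. Its difference of -2.86 ± 0.46 (edgeR adjusted p = 0.00570) rested on 4, 2, 70 and 14 UMIs in CD8 T cells, and its Treg groups overlapped. The call was lost for Areg without control 2 (-2.18) or DKO 1 (-2.56), and for Nkg7 without control 2 (0.69) or DKO 2 (0.90).

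Markers of other lymphocytes were also summed over the Treg cells. CD8 and NK cell markers had 3 of 4 tested genes above 0 and summed to 432, 279, 595 and 853 CPM, so both DKO libraries lay above control. Nkg7 held most of the sum in control 1, control 2 and DKO 1. In DKO 2 other members of the list stood apart: Gzma, a granzyme of CD8 and NK cells, had 4, 4, 2 and 178 UMIs, of which 3 cells held 169 in DKO 2, and the NK cell receptor gene Ncr1 had 0, 0, 0 and 7. Without DKO 2 the log2 change was 1.63 for Prf1, against 1.75 with it, and 1.03 for Nkg7, against 0.82. In DKO 1 as well, few cells held many of these UMIs, with 13 of 31 for Prf1 and 76 of 253 for Nkg7 in 3 cells. The part of CD8 or NK cells in the values of Prf1 and Nkg7 was not tested in either DKO library. Neutrophil markers summed to 7.26, 18.1, 33.2 and 11.2 CPM and gamma-delta T cell markers to 7.26, 0, 0 and 16.2, with 0 genes tested in either list. Trac, the alpha-beta T cell receptor constant region, was at 869.9 and 729 CPM in the controls and 854 and 801 in DKO and did not separate the groups. In the list of B cell markers 1 gene could be tested, Ighm, at 478, 319, 376 and 425 CPM in Treg cells and a mean of 42.5 in conventional CD4 T cells, whereas Ms4a1 had 0 UMIs in all 4 libraries. In the list of type 2 lymphocyte markers, Areg alone could be tested, and Il13 had 0, 0, 0 and 11 UMIs.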

How the data were processed

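Single-cell RNA libraries of 4 pools of mouse tumours were analysed from the deposited matrices. Per the file headers these hold UMI counts per barcode and gene, made by the authors with matrix software 3.1.0. Per the submitters' processing notes, Cell Ranger, Seurat 3.1.0 and R 3.6.0 were used, with builds mm10 and GRCh38 named. Of 31053 features, 30934 (99.6%) matched GENCODE vM21, which gave GRCm38 coordinates. No correction for free RNA was applied. Doublets were kept in the main analysis, and Scrublet (in scanpy 1.11.5) marked the highest scores for an alternative, among them 10, 5, 4 and 11 Treg cells.

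Treg cells, conventional CD4 T cells and CD8 T cells (at least 2 Cd8a and Cd8b1 UMIs, no Cd4 or Foxp3) were gated on raw UMIs. Counts were summed per library and type and tested with edgeR 4.0.16 (TMM, filterByExpr, robust quasi-likelihood F test, Benjamini-Hochberg over all genes tested, threshold 0.05). CPM values are UMIs of a gene per 1000000 UMIs of the summed cells, without TMM factors. DESeq2 1.42.0 and other gates were alternatives. The fits were tested on simulated data. Shares were compared by two-sided exact permutation tests. Intervals are 95% Clopper-Pearson and cover counting error only.

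Named genes were the markers, up to 10 genes higher and 10 lower with the smallest p, at least 20 CPM in the higher group and no overlap, and in each of 22 lists the called genes, the 3 largest changes and the 3 highest levels. For levels against conventional CD4 T cells they were the 15 highest and 8 lowest ratios, for each cell-type-by-group term the 5 smallest p, and the members of the retinoic acid list with at least 3 UMIs in a library. Il10, Tbx21, Cxcr3, Prf1 in CD8 T cells, Tcf7, Trac and the other level comparisons outside that rule were added after their values were seen or come from the marker shares. The members and lists were chosen with earlier results of these data known. Some items are not reported here.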

Additional observations from a re-analysis of the deposited data

Results flagged for a closer look

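The DKO change differed between Treg and conventional CD4 T cells by edgeR's cell-type-by-group test for 7 genes. The differences in log2 change, Treg minus conventional CD4, were 2.12 for Ccl24, 1.83 for Klrg1, 1.57 for Serpinb6b, 1.77 for Dab2, 1.35 for Ccl5, 1.32 for Cxcr6 and 1.01 for Nkg7. For Klrg1, Dab2 and Ccl5 the change lay in conventional CD4 T cells, where each was lower in DKO. Dab2, an endocytic adaptor, was at 85.4, 61.7, 53.1 and 82.0 CPM in Treg cells and at 54.7, 48.3, 10.1 and 17.6 CPM in conventional CD4 T cells. With doublets removed the difference for Dab2 was 0.055 and that for Ccl24 was 1.24, and neither was called.

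Against CD8 T cells the differences were 1.96 for Cxcl2, 7.14 for Cxcl3, -2.86 for Areg and 0.94 for Nkg7. The value for Cxcl3, a neutrophil-attracting chemokine, rests on 3, 1, 13 and 0 UMIs in Treg cells and 67, 15, 3 and 0 in CD8 T cells, so its size is not well determined. Cxcl2, of the same chemokine family, was at 229, 417, 442 and 70.8 CPM in Treg cells and overlapped between the groups.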

How the results depend on the processing

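The number of genes called in Treg cells depended on the analysis. Against 3 genes, the count was 75 without a filter on low counts, 46 with the replicate number as a block, 12 with at least 2 Foxp3 UMIs, 7 with doublets removed, and 0 with 0 C1q UMIs or with 0 UMIs of Lyz2, Csf1r and Cd14. Leaving out 1 library gave 3 to 79 genes, namely 12 and 3 when control 1 or control 2 was left out and 79 and 60 when DKO 1 or DKO 2 was. The lone library is then assumed to vary like the other group. DESeq2 called 4 genes, 2 of them shared with edgeR. The replicate numbers did not pair the libraries (correlation of deviations -0.0299), so the block shows only how the count moves. The difference from conventional CD4 T cells was called for 3 to 26 genes and that from CD8 T cells for 3 to 22 genes when 1 library was left out, and for 2 genes against CD8 T cells with doublets removed.

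Tyrobp was no longer called with at least 1 Cd4 UMI (-0.57), with doublets removed or with 0 C1q UMIs, and Cxcl9 was no longer called without the limit on proliferation genes (-1.79) and could not be tested under 4 alternatives that kept fewer cells. Over the single-gene values of all alternatives, 10 log2 changes lost a call, 99 gained one and 497 kept their side of the threshold, and 28 differences between cell types lost a call while 38 kept theirs. The sign of Ikzf2 turned with at least 1 Cd4 UMI (-0.12), with doublets removed (-0.063), with 0 C1q UMIs (-0.011), with 0 UMIs of Lyz2, Csf1r and Cd14 (-0.13) and without control 2 (-0.065), where leaving out 1 library gave -0.065 to 0.25. That of Il2ra turned with 0 UMIs of Lyz2, Csf1r and Cd14 (-0.039). The cause was not tested. For the share of T cells, the groups ceased to overlap with 0 C1q UMIs, and without DKO 2 the difference between DKO and control was -0.93 percentage points.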
